A study of Malus domestica with 12 samples.

Results

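The transcripts described here code for 6 tau class glutathione S-transferases of apple peel, 4 annotated after Arabidopsis GSTU19 (MD05G1210000, MD05G1210700, MD05G1211000 and MD05G1211100, chromosome 5) and 2 after GSTU8 (MD04G1139400 and MD04G1139500, chromosome 4). They are 6 of the transcripts behind 133709 probes, and they were chosen by measured values, because the study's list of candidate genes took them from transcripts that differed between high and low scald fruit on these arrays. The high over low scald values of these transcripts are therefore given as a description, with no test. MD05G1211000 and MD05G1211100 carry neighbouring gene numbers, as do MD04G1139400 and MD04G1139500. The gene numbers are those that the study paired with the older MDP predictions the probes were designed on, each MDP name leading to 1 sense probe and 1 antisense probe.

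Superficial scald is a browning of the apple skin that appears after cold storage. The peel came from 'Granny Smith' fruit, 20 per sample, picked at early harvest, before storage. Of the 5 peel samples, 3 belonged to fruit batches with high later scald (2015-P24, 2015-P31 and 2017-P31b) and 2 to batches with low later scald (2014-P24 and 2014-P36), where the first part is the harvest year and the second the orchard plot. The study's methods call the 2017 sample R11, whereas its label reads plot 31b, and their paragraph on plant material, unlike the one on the arrays, gives other plots for 2014 and 2015 than the labels, which were followed here.

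The samples met on 6 arrays, which read 2 dyes each, in 3 comparisons that were each run in both dye orientations. In C1, 2015-P24 was hybridised with 2014-P24. In C2, the partner of 2015-P31 was 2014-P36, and in C3, 2017-P31b was hybridised with the 2014-P24 sample again. C1 and C3 thus share a low scald sample and a slide, and C2 lay on another slide. Within a comparison each condition was 1 pooled peel sample, so the repeated arrays and channels carry technical spread only. All low scald fruit grew in 2014 and all high scald fruit in 2015 or 2017, so scald and harvest year cannot be told apart, and in peel, fewer cells of a type and less RNA per cell cannot be told apart either.

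Glutathione S-transferases of the tau class are plant enzymes that couple the tripeptide glutathione to reactive, electrophilic molecules, and many can also reduce organic peroxides. The family often lies in tandem arrays of recently copied genes, whose transcripts resemble each other. In Arabidopsis, GSTU19 is among the enzymes induced by herbicide safeners and oxidative treatments. Scald itself has been linked with the oxidation of alpha-farnesene, a terpene of the peel. Probe and gene sequences were not analysed here, so the likeness of neighbouring copies was described from their signals alone.

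All 6 transcripts were lower in the high scald sample on every array that measured them, which gave 35 negative log2 ratios of 35. MD05G1211000 had a mean log2 ratio of -2.37 ± 1.09 (SD over the 3 comparisons, as for all mean ratios below), which is 5.17-fold lower in high scald peel. MD05G1210000 had -1.01 ± 0.62. MD05G1211100 had -1.75 ± 0.76 from 5 arrays and MD05G1210700 -1.35 ± 0.69, but both were within background in 2017-P31b, so these means are less certain. With plain background subtraction they were -2.63 and -2.11, and MD05G1211000, at -2.64, was then level with MD05G1211100. The GSTU8 transcripts had the same mean, -1.11 ± 0.45 for MD04G1139400 and -1.11 ± 0.48 for MD04G1139500. A log2 ratio of -1 or below was reached by 5 of the 6 in C1, 1 in C2, then 4 in C3, where 0.309%, 0.574% and 0.41% of all probes reached it. These counts follow from how the transcripts were chosen. The limma fit of all probes over the 3 ratios called 0.000748% of them (1 probe) after Benjamini-Hochberg adjustment, a figure given as background only, because the choice of the 6 used this contrast. The study's own combined test of these comparisons reported far more changed transcripts. Why the fits differ was not tested.

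The 6 transcripts were not lowered alike in the 3 comparisons, and the 2 groups differed in where they were lowest. The GSTU19 transcripts were reduced most in C3, the 2017 sample, with a median log2 ratio of -2.18, against -1.71 in C1 and -0.76 in C2. The middle values behind the C3 median are those of MD05G1210700 and MD05G1211100, but the well measured MD05G1210000 and MD05G1211000 were lowest in C3 as well. The GSTU8 transcripts were reduced most in C1, with a median of -1.64, while C3 (-0.85) and C2 (-0.84) were close to each other. On the same arrays, the mean ratio of the GSTU19 probes minus that of the GSTU8 probes was -0.05 and -0.09 in C1 and 0.14 and -0.05 in C2, but -1.52 and -1.49 in C3, the last without MD05G1211100, which had no value on that array. In C1, single GSTU19 transcripts lay on both sides of the GSTU8 ones, with MD05G1210000 above MD04G1139400 by 0.64 and MD05G1211000 at a difference of -0.82 from it. In C3 all 4 GSTU19 transcripts lay below both GSTU8 transcripts.

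**Figure D1:**
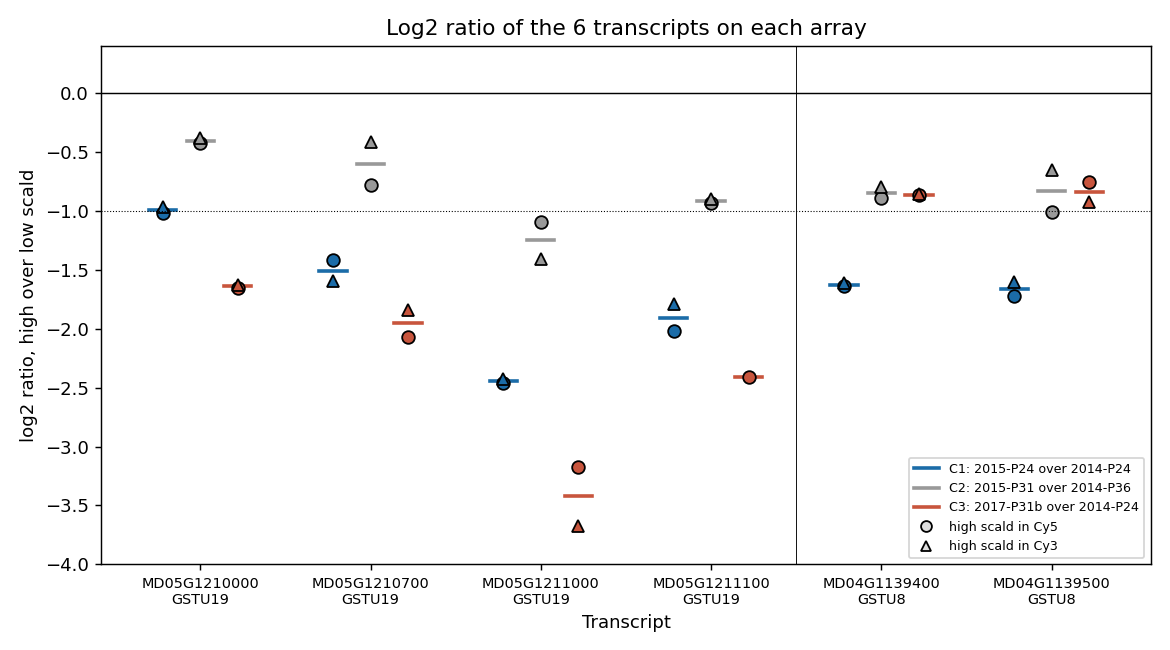
Log2 ratio (high over low scald, vertical axis) of the 6 transcripts (horizontal axis) on each array, with circles for high scald RNA in Cy5, triangles for Cy3, colours for the comparison and bars for the mean of a comparison. GSTU19 transcripts lie lowest in C3 and GSTU8 transcripts lowest in C1, and the dotted line marks -1.

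The arrays of a comparison gave near values for each transcript. MD05G1211000 had log2 ratios of -2.46 and -2.42 in C1, -1.09 and -1.41 in C2, then -3.17 and -3.67 in C3. For MD05G1210000 the arrays gave -1.02 and -0.96 in C1, -0.43 and -0.38 in C2, then -1.65 and -1.63 in C3. In both transcripts every C3 array was below every C1 array, and every C1 array was below every C2 array. MD05G1210700 had -1.42 and -1.59 in C1, -0.78 and -0.41 in C2, then -2.07 and -1.84 in C3. MD05G1211100 had -2.02 and -1.79 in C1, -0.93 and -0.90 in C2, and -2.41 on the only C3 array that measured it, the spot of the other being marked as an outlier and left out. The same order of arrays held in these transcripts too.

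MD04G1139400 had -1.64 and -1.61 in C1, -0.89 and -0.80 in C2, then -0.86 and -0.86 in C3. MD04G1139500 had -1.72 and -1.60 in C1, -1.01 and -0.66 in C2, then -0.76 and -0.93 in C3. In both GSTU8 transcripts the C1 arrays lay below all others, and C2 and C3 overlapped. C2 gave the smallest drop in the GSTU19 transcripts, and for GSTU8 it was level with C3. In C2 only 10.8% of all probes in the high scald Cy5 channel and 13.1% in the low scald one were well above background, against 21.3% to 29.7% in the other channels. The dye-swapped arrays also correlated less in C2 (r = 0.38 across 30518 probes above background in 6 or more channels) than in C1 (0.70) or C3 (0.81). The part of this in the smaller ratios was not tested.

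Levels per peel sample were taken from the single channels, after scaling between arrays, on a log2 scale, and each transcript is compared only with itself. In all 6 the 3 high scald samples lay below both low scald samples, as they did for 5.45% of all probes. That gap follows from the choice of transcripts, but the order of the 3 high scald samples does not. All 4 GSTU19 transcripts had 2017-P31b lowest, then 2015-P24, then 2015-P31, then 2014-P36 and 2014-P24 highest. Both GSTU8 transcripts had 2015-P24 lowest, then 2015-P31, then 2017-P31b, and the same order of the low scald samples. Among 1449 probes above background in 6 or more channels whose 3 high scald samples likewise lay below both low scald ones, 15.3% had the first order and 7.45% the second. The channels of neighbouring samples did not overlap in any of the 6 transcripts, but most samples had only 2 channels. For MD05G1211100 in 2017-P31b it was 1 channel, not above background. The share of all probes without such overlap was not computed. Each sample is 1 pool of fruit, and 2015-P31 and 2014-P36 lay on their own slide, so these orders were not tested.

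MD05G1211000 had a mean level of 8.49 in 2015-P24, 8.90 in 2015-P31 and 7.63 in 2017-P31b, against 10.99 in 2014-P24 and 10.15 in 2014-P36. The highest channel of any high scald sample was 9.10 and the lowest of any low scald sample 10.11. For MD05G1210000 the mean levels were 11.01, 11.25 and 10.37 in 2015-P24, 2015-P31 and 2017-P31b, against 11.97 to 12.04 over the channels of 2014-P24 and a mean of 11.65 in 2014-P36. Its channels repeated closely, with an SD of at most 0.06 within a sample, so that the step of 0.24 between 2015-P24 and 2015-P31, its smallest, exceeded the spread of the channels.

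MD05G1210700 and MD05G1211100 were the dim members of the group. MD05G1210700 had 6.97, 7.41 and 6.49 in 2015-P24, 2015-P31 and 2017-P31b, against 8.46 in 2014-P24 and 8.01 in 2014-P36. MD05G1211100 had 6.85, 7.40 and 6.31 in the same high scald samples, against 8.75 and 8.32 in 2014-P24 and 2014-P36. Both were well above background in all 6 low scald channels but in only 3 of 6 high scald channels, with none in 2017-P31b. There a bound was set at the array's weakest signal well above background, or at the probe's own signal where higher. On that basis, 2017-P31b was at least 3.77-fold lower than 2014-P24 for MD05G1210700 and at least 4.83-fold lower for MD05G1211100. The bounds, 6.54 and 6.47, still lay under the levels of the same transcripts in 2015-P24. The other 4 transcripts were well above background in all 12 channels, and no channel of the 6 was saturated.

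MD04G1139400 had 8.91 in 2015-P24, 9.39 in 2015-P31 and 9.82 in 2017-P31b, against 10.61 in 2014-P24 and 10.24 in 2014-P36. MD04G1139500 had 9.62, 9.98 and 10.41 in these high scald samples, against 11.26 and 10.82 in 2014-P24 and 2014-P36. The neighbours thus stepped upward through the same 5 samples in similar steps, of 0.37 to 0.48 on the log2 scale. The sample 2014-P24, hybridised in both C3 and C1, repeated well: its mean level in C3 minus that in C1 lay between -0.04 and 0.14 over the 6 transcripts, less than the separation of 2017-P31b and 2015-P24 in each of them.

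**Figure D2:**
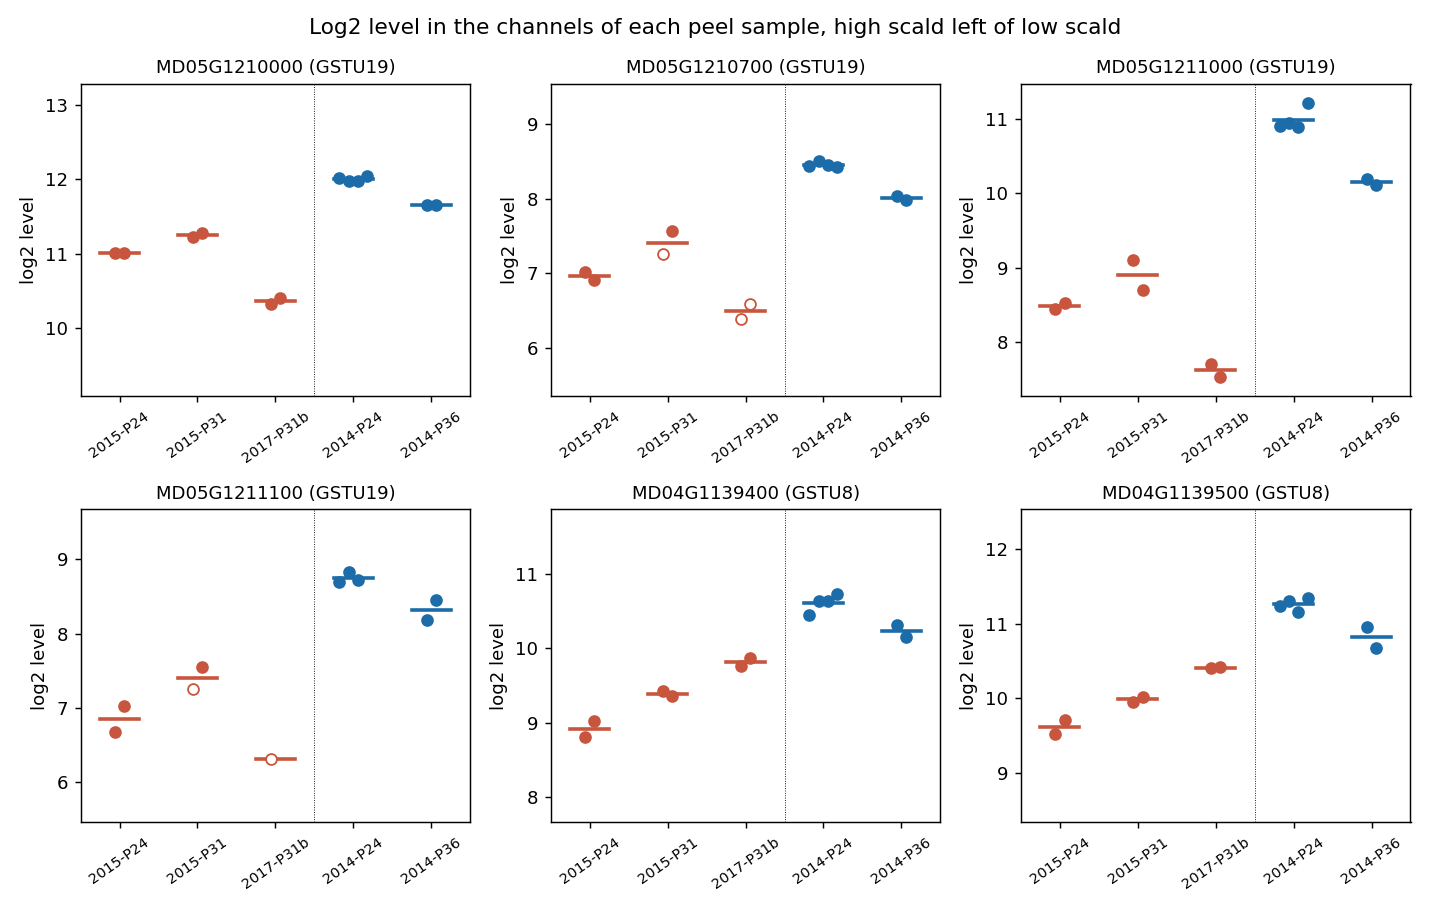
Log2 level (vertical axis, each panel spanning the same range of log2 units) of each transcript in the channels of the 5 peel samples (horizontal axis), high scald in red left of low scald in blue, with bars for the mean of a sample and open points for channels not well above background. In GSTU19 panels 2017-P31b is the lowest sample, and in GSTU8 panels 2015-P24 is.

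The contrast of the 2017 and 2015 high scald samples can be read from C3 minus C1, where 2014-P24 is the partner in both. It was -0.65 for MD05G1210000, -0.45 for MD05G1210700, -0.98 for MD05G1211000 and -0.50 for MD05G1211100, and 0.76 for MD04G1139400 and 0.82 for MD04G1139500. For MD05G1210700 and MD05G1211100 the signal of 2017-P31b was not above background, so the sizes of their differences are uncertain. The level of 2017-P31b minus that of 2015-P24 gave -0.64, -0.48, -0.86 and -0.54 for the GSTU19 transcripts in the same order, and 0.90 and 0.80 for the GSTU8 ones. So 2017-P31b lay below 2015-P24 for all 4 GSTU19 transcripts and above it for both GSTU8 transcripts. None of the 4 well measured transcripts passed a difference of 1 in either direction, as 0.601% of all probes did. Among probes above background in 6 or more channels the difference ran between -0.64 and 0.63 from the 5th to the 95th percentile. MD05G1211000 and both GSTU8 transcripts fell outside that range. MD05G1210000, at -0.651 against -0.641, lay only just past its edge, by less than the spread of 0.04 from its dye-swapped arrays. The dim GSTU19 transcripts have no measured place in that range. Within this pair of samples, year and plot differ together, and with 1 peel sample each there was no test.

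The direction of this difference was the same in each of 8 ways of processing, but its size was not. Among the 8, scaling between arrays and the filter on probes above background leave a ratio as it was. These could not change the direction. Centring each array on its median in place of loess moved the difference of all well measured probes to a median of -0.49, against -0.04 with loess. Under centring the GSTU8 transcripts had 0.15 and 0.17 and the GSTU19 transcripts between -1.57 and -0.37. Relative to the median of the well measured probes, the GSTU8 median was 0.64 under centring and 0.83 with loess, and the GSTU19 median -0.62 and -0.53. With plain background subtraction 3 GSTU19 transcripts passed -1 (MD05G1210700 at -1.23, MD05G1211000 at -1.27 and MD05G1211100 at -1.41). With the outlier spots used, MD05G1211100 had only -0.19.

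**Figure D3:**
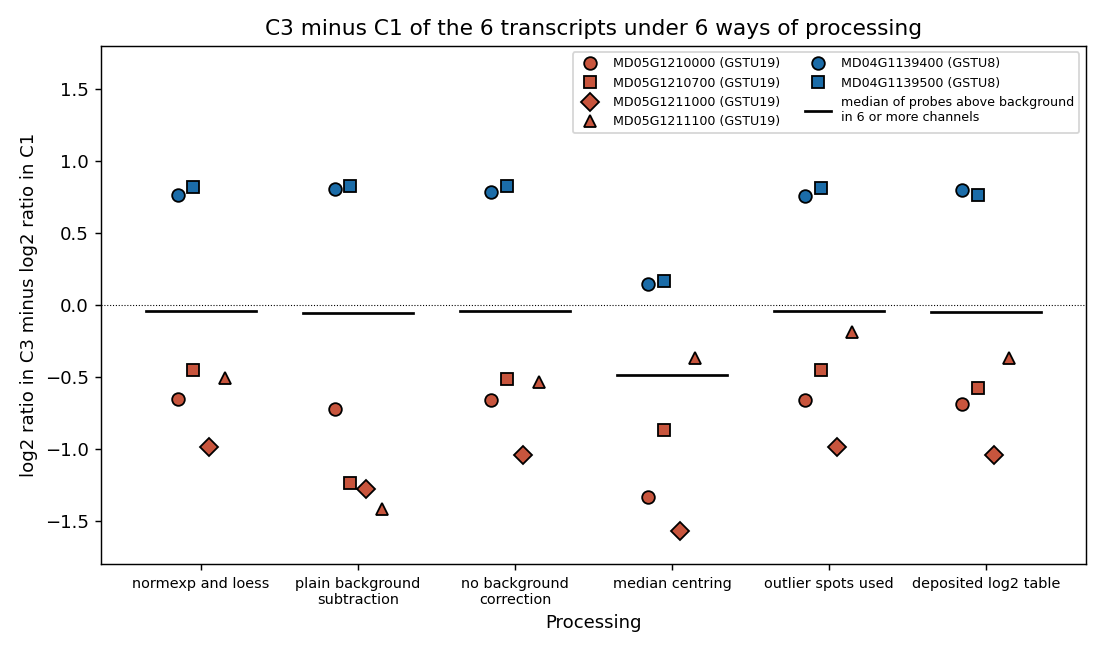
Difference of the log2 ratios in C3 and C1 (vertical axis) for the 6 transcripts under 6 of the 8 ways of processing (horizontal axis), GSTU19 in red and GSTU8 in blue, with black bars for the median of probes above background in 6 or more channels. The groups stay on opposite sides of that bar except for MD05G1211100 under median centring, which lies at -0.37 over a bar at -0.49.

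Within the GSTU19 group the transcripts had one order in each comparison, MD05G1211000 with the lowest ratio, then MD05G1211100, MD05G1210700 and MD05G1210000. With plain background subtraction MD05G1211100 (-1.64) lay below MD05G1211000 (-1.45) in C2, and with median centring MD05G1210700 (-2.09) lay below MD05G1211100 (-2.01) in C3. MD05G1210000 was highest and MD05G1211000 well below it under each of 8 ways of processing, some of which leave a ratio as it was. MD05G1210000 exceeded MD05G1211000 by 1.45 in C1, 0.85 in C2, then 1.78 in C3 (mean 1.36 ± 0.48). Between MD05G1211000 and MD05G1211100, the copies with neighbouring numbers, the difference was -0.53 in C1, -0.33 in C2, then -1.01 in C3. The closest pairs were MD05G1210000 and MD05G1210700, at 0.34 ± 0.16, and MD05G1210700 and MD05G1211100, at 0.39 ± 0.07. Which pairs were closest depended on the handling of background. With plain subtraction MD05G1211000 and MD05G1211100 had -2.60 and -2.42 in C1, and -3.87 and -3.84 in C3. MD05G1210000 and MD05G1210700 then had -1.01 and -1.98 in C1, and -1.73 and -3.21 in C3. The ratios of the dim probes in C3 rest on signals within background, so their distance from the other transcripts there is uncertain.

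The GSTU8 neighbours gave nearly equal values throughout. MD04G1139400 minus MD04G1139500 was 0.04 in C1, -0.01 in C2, then -0.02 in C3, and its sign was negative on 3 of 6 arrays. The difference of their levels varied over the 5 peel samples with an SD of 0.05, compared with 0.20 to 0.74 for the 6 pairs of GSTU19 transcripts and 0.55 to 0.97 for the 8 pairs that joined a GSTU19 and a GSTU8 transcript. Whether the probes of MD04G1139400 and MD04G1139500 each read their own transcript, or partly the same RNA, was not tested. For the GSTU19 probes it was not tested either. Their ratios kept one order on every array, without MD05G1211100 on the C3 array where its spot was left out, but some were close. On the C2 array with high scald in Cy3, MD05G1210000 had -0.38 and MD05G1210700 -0.415. As given above, the order changed in C2 with plain background subtraction and in C3 with median centring. The arrays of a comparison also repeat the same RNA.

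Antisense probes of the 6 transcripts were not used in choosing them, so limma's test applies. Their mean log2 ratios lay between -0.11 and -0.05, adjusted p ran from 0.94 to 0.97, and none was called, with 1 of 6 at an unadjusted p under 0.05. Only 3 of their 72 channel readings were well above background, all from the antisense probe of MD05G1211100. The decrease seen with the sense probes was thus not measurable on the other strand, where there was hardly any signal.

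A further 11 transcripts annotated as glutathione S-transferase stood in the study's list of changed transcripts, of which only a shortened version was read. They were picked on the same samples and are no independent evidence of a direction. All 11 had negative mean ratios, from -1.74 to -0.39 with a median of -0.61, against -0.0002 over all probes. In the limma fit made here none of the 11 was called (adjusted p from 0.43 to 0.94). The study's own combined test had listed all of them as changed. An unadjusted p under 0.05 was found for 11 of 11 and for 7098 of the 133709 probes, but the list was picked for differing on these samples. A ratio of -1 or below was reached by 3 in C1, 0 in C2, then 5 in C3. For its later steps the study kept only transcripts placed on a gene of the newer genome assembly. How its candidate list was cut from those is not stated. The candidate with the smallest drop, MD05G1210000 at -1.01, lay between MDP0000191837 (-1.19) and MDP0000294847 (-0.92), which were left out. MDP0000191837 had no gene number, and MDP0000294847 shared the gene number MD05G1210000.

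MDP0000294847 is a second prediction that the study placed on MD05G1210000, and its own sense probe repeated the pattern of that gene. It had log2 ratios of -0.89 in C1, -0.22 in C2, then -1.65 in C3, where the first probe had -0.99, -0.40 and -1.64. MDP0000191837, also annotated as GSTU19, had -1.10, -0.62 and -1.86 in C1, C2 and C3. MDP0000722969, annotated as GSTU25, had -1.43, -0.85 and -2.21. These 3 transcripts also had the GSTU19 order of the 5 peel samples. MDP0000161016, MDP0000162215 and MDP0000183814, likewise annotated as GSTU19, had other orders. In MDP0000183814, 2014-P24 (7.58) even lay below 2015-P31 (7.88). Among the other GSTU8 transcripts only MDP0000194046 had the GSTU8 order. MDP0000161016, annotated as GSTU19, had the lowest mean ratio of the list at -1.74, but it was well above background in no high scald channel. By a bound set in the same way and for the same processing, its level in 2015-P24 was at least 3.91-fold lower than in 2014-P24. In 2017-P31b it was at least 2.80-fold lower.

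By annotation, C3 was below C1 in 4 of the 5 other GSTU19 transcripts and in the GSTU25 one, in 0 of the 3 other GSTU8 transcripts and in 1 of the 2 GSTU7 ones. The exception among GSTU19 was MDP0000161016, whose high scald signals in C1 and C3 were not above background. MDP0000183814 and MDP0000162215, counted among the 4, were also not above background in 2017-P31b, and MDP0000162215, at -0.07, lay within its dye-swap spread of 0.15. MDP0000194046 and MDP0000178304, both placed on MD14G1232100 and annotated as GSTU8, had C3 minus C1 at 0.25 and 0.32, smaller than for MD04G1139400 and MD04G1139500. MDP0000766223 had 0.08. The dye-swapped arrays alone gave a spread of 0.19 for MDP0000194046, 0.29 for MDP0000178304 and 0.19 for MDP0000766223, so these differences were near or under the technical error.

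**Figure D4:**
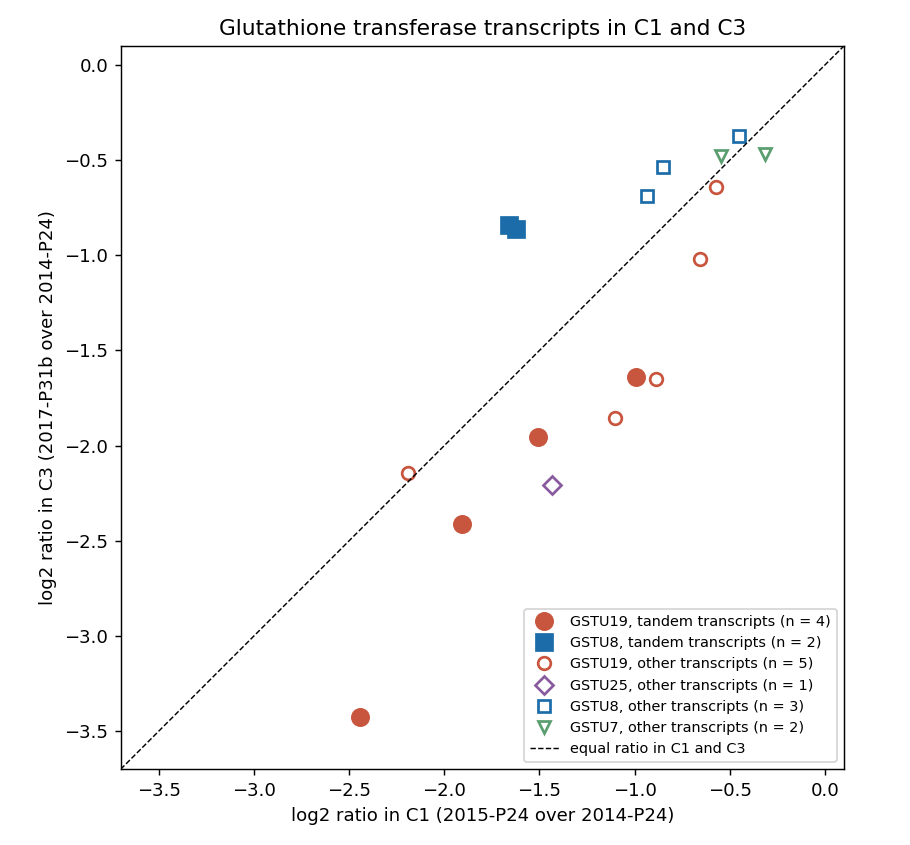
Log2 ratio in C3 (vertical axis) against C1 (horizontal axis) for the 6 transcripts (filled) and the 11 other glutathione transferase transcripts (open), coloured by Arabidopsis annotation, with a dashed line of equal ratios. C1 and C3 share 2014-P24, and the 4 filled GSTU19 points lie below the line and both filled GSTU8 points above it. Open points close to the line, such as MDP0000162215 and MDP0000766223, differ by less than their dye-swap spread.

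The candidate list held 11 further transcripts under oxidative stress, chosen on these samples as well, of which 9 had negative and 2 positive ratios (median -1.02). None was called by limma (lowest adjusted p of 0.089, with 11 at an unadjusted p under 0.05, again a result of how they were picked). The glutaredoxin MD06G1110300, a small enzyme that reduces disulphides with glutathione, had nearly the same log2 ratio in each comparison, -1.69 in C1, -1.63 in C2, then -1.64 in C3, and so neither of the patterns above. The transcripts annotated as thioredoxin, MD05G1309500 and MD10G1288100, had C3 minus C1 at 0.79 and 0.84, like GSTU8. Both cytochrome c transcripts (CYTC-1, an electron carrier of mitochondria), MD15G1395600 and MD08G1213100, had -0.55 and -0.59, like GSTU19. APX2, an ascorbate peroxidase that removes hydrogen peroxide, was not above background in 2017-P31b. By a bound set as before, its level there was at least 2.13-fold lower than in 2014-P24.

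The probes with the most similar 6 ratios were sought among 14492 sense probes measured on all arrays and well above background in every low scald channel, by the root mean square difference from the mean profile of a group. For GSTU19 the nearest were MDP0000637620 (HSP101, a chaperone that dissolves protein aggregates), MDP0000220559 (an HSP70 type chaperone), MDP0000119725 and MDP0000268980 (both MYB12 in the candidate list, in Arabidopsis a regulator of flavonol synthesis, though the list of changed transcripts describes them as MYB111 and as an amine oxidase family protein) and MDP0000236662 (an OTU-like cysteine protease). They lay at 0.11 to 0.16 log2 units from the mean profile, and the 4 transcripts themselves at 0.16 to 0.81. That profile included MD05G1210700 and MD05G1211100, whose C3 ratios are bounds. All of the nearest probes, here and for GSTU8, stood in the study's list of changed transcripts, picked on these samples. MDP0000637620 had -1.86 in C1, -0.87 in C2, then -2.42 in C3. For GSTU8 the nearest at 0.12 was MDP0000135807, the probe of MD05G1309500 above, whose Arabidopsis match is also described as a glutaredoxin family protein. The next were MDP0000936075, MDP0000513751, MDP0000173145 (MERI5B, a glycosyl hydrolase) and MDP0000607000, at 0.17 to 0.22. The 2 GSTU8 transcripts lay at 0.05 from their own mean.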

How the data were processed

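Peel RNA was amplified, labelled with Cy3 and Cy5 and hybridised to AryANE_v2 arrays. The authors deposited the intensity of each spot and of its background per channel, with flags for saturated and outlier spots, and a table of log2 values after lowess. They name limma for their statistics, with its version not given in the sources used here. From the intensities, the background was corrected with normexp (offset 50) and each array normalised by loess (span 0.3, 4 iterations) in limma 3.58.1 under R 4.3.3, with control and outlier spots at weight 0. All ratios run high over low scald, and spots of a probe and both dye orientations were averaged. The 3 ratios entered lmFit and eBayes over 133709 probes, with calls at p of at most 0.05 after Benjamini-Hochberg adjustment. Well above background meant more than 2.6 background SDs over the local background. Levels followed loess and Aquantile, and the precision is limited by 5 peel samples. Bounds used the mean over all channels of the brighter sample. The calculation was tested on simulated data.

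Transcripts and lists were chosen with earlier results of these data known. Named were the 6 transcripts with their sense and antisense probes, 2 lists of the study's changed transcripts and, per group, the 5 probes with the nearest ratios. None of the gene names matched the RefSeq annotation table. Pairing of high and low scald samples came from sharing an array. With the comparison as a block over 6 arrays, the consensus correlation between both dye orientations was -0.045. Alternatives changed background, normalisation, filters, the source of values, the fit and the arrays entered. Figures were drawn with matplotlib 3.10.9 under Python 3.11.15 with pandas 2.3.3, and R ran with statmod 1.5.0.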

Additional observations from a re-analysis of the deposited data

Results flagged for a closer look

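The sample 2014-P24 was the only one with enough channels to look for a reading apart from the rest. One of its 4 channels stood apart for the antisense probe MDP0000566567_r of MD05G1211000, where the gap took 0.918 of the whole range, with levels of 5.90, 5.91, 5.91 and 6.04. The same held for the antisense probe MDP0000642594_r of MD04G1139400, where the gap took 0.850 of the range, with levels of 5.85, 5.88, 5.88 and 6.09. Neither probe was well above background in any channel, and chance gives such a gap in about 1 of 20 groups. No sense probe of the 6 transcripts had a channel of 2014-P24 apart from the others.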

How the results depend on the processing

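The log2 ratios of all 6 transcripts stayed negative under all 22 alternatives. Among these, scaling between arrays, the filter on background and a variance trend leave the ratios as they were. The GSTU19 median lay between -2.37 and -1.23, the lowest with plain background subtraction, and the GSTU8 median between -1.25 and -0.85. Plain subtraction also moved the median of the other glutathione transferases to -1.06 and the GSTU19 median of C3 minus C1 to -1.25. Median centring moved that value to -1.10 and the GSTU8 median to 0.16. C3 minus C1 changed direction in none of the 6 transcripts, but under median centring MD05G1211100 (-0.37) lay above the median of the well measured probes (-0.49). Plain subtraction turned the order of MD05G1211000 and MD05G1211100 in C2. The number of probes called over the whole array depended on the fit. It was 1 in the fit of 3 ratios, 432 with the 6 arrays as separate ratios, 457 with a replicate block by comparison, 640 with the slide as a random block over 6 arrays and 10 with a variance trend. The fits of 6 arrays count dye-swapped arrays of the same RNA. Some of the 6 transcripts were called in them, which is no test, because the transcripts were chosen on this contrast. The number of probes called was 0 with plain subtraction, median centring, outlier spots used, C1 and C3 averaged first, or the unpaired levels of 5 peel samples with no replicate block. Without single comparisons or arrays it was 0 to 1. The random slide block was fitted to 6 arrays because it could not be fitted to 3 ratios. Signal over background limits MD05G1210700 and MD05G1211100, whose 2017-P31b readings lay within background.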

Other observations

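The antisense probe of MD05G1211100 had higher levels in the samples of C2 than in the others, in high and low scald peel alike. Its log2 level was 7.50 in 2015-P31, against 7.54 in 2014-P36, whereas it was 6.26 in 2015-P24 and 6.36 in 2017-P31b, against 6.38 in 2014-P24. In C2 it was well above background in the Cy3 channel of both samples and in neither Cy5 channel. The samples of C2 also differed from the rest in slide and plot, which cannot be told apart here. Over the 88652 probes that were well above background in no channel, the median level was 5.87 in each of the 5 peel samples.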
